A study of Mus musculus with 9 samples.

Results

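Integrin subunits are described here in HT22, an immortalised line derived from mouse hippocampal neurons. Members were taken by gene symbol from the deposited expression table, and all 10 named subunits had 1 entry each among its 29756 entries. They are the beta subunits Itgb1, Itgb3 and Itgb5 and the alpha subunits Itga1, Itga2, Itga3, Itga5, Itga6, Itga7 and Itgav. RNA was sequenced in 9 libraries, 3 each from a control group (C), an experimental group (A) and an intervention group (B). The series title speaks of neurons stimulated with hemin, an oxidised form of heme, and of a bioactive micelle named PPP8, but the labels assign neither agent, no dose and no time to a group, so the group names of the labels are used. All groups share the cell line, and nothing in the labels says that replicates were separate cultures, so every p-value measures only the spread between these libraries, which may be technical.

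Integrins are cell surface receptors built from an alpha and a beta subunit. They hold cells to the extracellular matrix, link it to actin through adaptors such as talin, kindlin and vinculin, and signal through focal adhesion kinase and integrin-linked kinase. The alpha subunit largely sets which matrix protein is bound: fibronectin for Itga5, laminins for Itga3, Itga6 and Itga7, collagens for Itga1 and Itga2, and proteins that carry an arginine-glycine-aspartate motif for Itgav. The subunit Itgb1 pairs with each of these, whereas Itgb3 and Itgb5 are known as partners of Itgav in vitronectin receptors. In the hippocampus integrins are known for roles in neurite growth and synaptic adhesion.

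The values are FPKM, which divide fragment counts by transcript length and by library total, so that levels of different subunits can be set side by side. Summed FPKM was 316912 to 339943 per library, sequencing depth is unknown, and 11154 to 11732 entries reached 1 FPKM in a library. Of the 12 neuron markers looked up, 9 stayed under 1 FPKM in every library, among them Map2, Rbfox3 and Dcx, while Tubb3 (a neuronal tubulin) and Syn1 (synapsin) were above 2 FPKM throughout and Snap25 reached 1.05. All 4 endothelial and all 4 oligodendrocyte markers, 5 of 6 astrocyte markers and 7 of the 8 microglia, blood and platelet markers in the table stayed under 1 FPKM in every library. The leukocyte marker Ptprc was at most 0.01 FPKM. All 6 fibroblast markers were expressed (Col1a1, Col1a2, Dcn, Pdgfrb, Thy1 and Vim). Their summed level was 1049 to 1207 FPKM in control, 474 to 501 in experimental and 459.6 to 485 in intervention libraries, and its part in the integrin results was not tested. Vim weighs most in that sum, at 614.94 to 661.81, 301.03 to 325.01 and 285.48 to 316.02 FPKM in the same order. Col1a1 and Col1a2 are also on the ligand list used further on.

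HT22 cells held mRNA for 6 of the 10 subunits at more than 6 FPKM in every library, and 4 were below 1 FPKM in every library. The subunits below 1 FPKM were Itga7, Itga1, Itga2 and Itgb3. Itga7, a laminin receptor subunit known from muscle, lay between 0.22 and 0.43 FPKM. The collagen receptor subunits Itga1 and Itga2 reached at most 0.03 and 0.02 FPKM. Itgb3, known from platelets and osteoclasts, was listed at 0 in all 3 control libraries and reached 0.01 elsewhere. Only genes that reached 1 FPKM in 3 or more libraries were tested, and none of these 4 did.

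Itgb1, the common beta subunit, was the most abundant of the 10 in all 9 libraries. Its control values were 143.84, 150.90 and 147.05 FPKM, its experimental values 135.55, 134.12 and 133.81, and its intervention values 132.30, 131.93 and 127.15. The control libraries were the highest and the intervention libraries the lowest, with no overlap between any groups. The gene lies on chromosome 8 from 128685654 to 128733200 on the plus strand of mm10. Itgb5, the beta subunit known as a vitronectin receptor with Itgav (chromosome 16, 33829665 to 33949338, plus strand), stood at 19.41, 19.49 and 16.84 FPKM in control libraries. It stood at 15.11, 14.79 and 15.45 in experimental and at 13.98, 15.66 and 15.38 in intervention libraries. All control values were above all others, and the experimental and intervention values overlapped.

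Itga5, the fibronectin receptor subunit (chromosome 15, 103344286 to 103366763, minus strand), led the alpha subunits in every library. It read 38.45, 35.44 and 40.03 FPKM in control, 43.77, 40.85 and 41.53 in experimental, and 32.38, 37.01 and 38.20 in intervention libraries. The experimental libraries were highest and did not overlap either of the other groups, which overlapped each other. Itga3, a laminin receptor subunit (chromosome 11, 95044474 to 95076801, minus strand), read 25.04, 22.86 and 24.34 FPKM in control libraries. It was far lower in the others, at 12.86, 14.09 and 13.56 in experimental and 15.36, 13.44 and 16.05 in intervention libraries, which overlapped each other but not the controls.

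Itgav (chromosome 2, 83724397 to 83806916, plus strand) gave 16.97, 15.89 and 18.96 FPKM in control libraries. Experimental libraries gave 12.33, 12.28 and 12.21 and intervention libraries 13.28, 12.45 and 12.08, so that the controls stood apart and the others overlapped. In mm10 its exons share 634 bases with Gm13684, an antisense transcript listed at no more than 0.06 FPKM, and reads of the pair cannot be told apart because the use of strand is not given. Itga6, another laminin receptor subunit (chromosome 2, 71745616 to 71858416, plus strand), was the most even of the 6. It read 6.10, 6.23 and 6.45 FPKM in control, 6.56, 6.35 and 6.46 in experimental and 6.12, 6.74 and 6.74 in intervention libraries, with all groups overlapping.

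**Figure D1:**
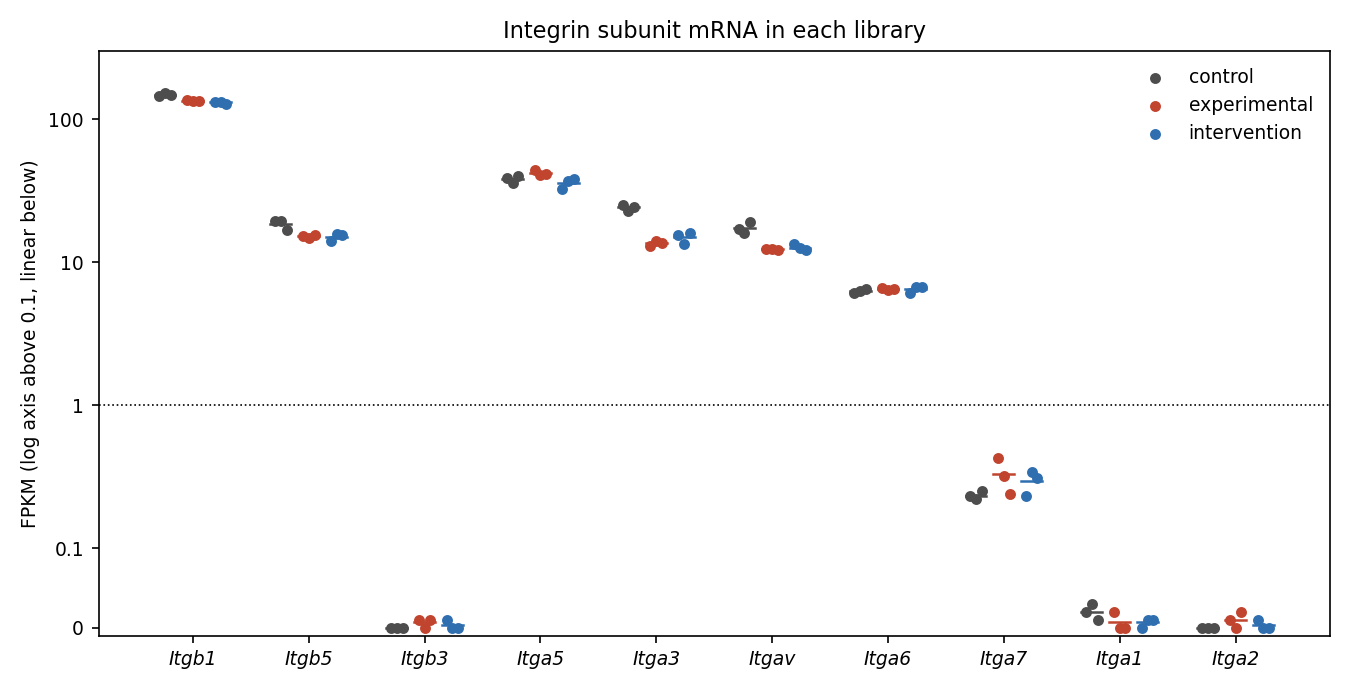
Level of each integrin subunit in FPKM (log axis above 0.1, linear below), with 1 point per library, a short bar for the mean of each group of 3, and a dotted line at 1 FPKM. The 6 tested subunits sit above 6 FPKM with Itgb1 at the top, and Itga7, Itga1, Itga2 and Itgb3 sit below 1 FPKM in every library.

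The order of the levels changed below Itga5. In control libraries Itgb1 and Itga5 were followed by Itga3 at 24.1 ± 1.11 FPKM, then by Itgb5 at 18.6 ± 1.51 and Itgav at 17.3 ± 1.56, whose ranges overlapped, and by Itga6 at 6.26 ± 0.177 (SD, n = 3 each). In experimental libraries Itgb5 came next after Itga5, at 15.1 ± 0.330, then Itga3 at 13.5 ± 0.617 and Itgav at 12.3 ± 0.0603, with no overlap between these neighbours. In intervention libraries Itgb5 (15.0 ± 0.900) and Itga3 (14.9 ± 1.35) overlapped, and Itgav followed at 12.6 ± 0.615 below both ranges.

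Promoter sequence is shown for the common beta subunit and for the alpha subunits Itga3, Itgav and Itga5, which bind different ligands. Itga3 and Itgav lay below control, without overlap, in both other groups, and Itga5 did so in neither. RefSeq promoters of build GRCm38.p6, the assembly of mm10, matched 7 of the 10 members by symbol. Itga3 has 2 listed starts, of which the one farther upstream is shown. Each run gives bases before the RefSeq transcription start, 5′ to 3′ on the strand of the gene, leaving out the 87 bases of Itga3 next to the start that a GENCODE exon covers. The RefSeq start of Itga5 lies slightly upstream of the GENCODE gene. Capitals mark matches, on either strand, to the motifs named after the sequences.
Itgb1, chr8:128685404-128685653, plus strand: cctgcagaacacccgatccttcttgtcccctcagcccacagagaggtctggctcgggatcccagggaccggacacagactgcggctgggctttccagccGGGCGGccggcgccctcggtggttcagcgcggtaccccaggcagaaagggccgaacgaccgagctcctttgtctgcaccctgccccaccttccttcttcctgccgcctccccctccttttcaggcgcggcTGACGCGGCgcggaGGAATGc
Itga3, chr11:95076802-95076964, minus strand: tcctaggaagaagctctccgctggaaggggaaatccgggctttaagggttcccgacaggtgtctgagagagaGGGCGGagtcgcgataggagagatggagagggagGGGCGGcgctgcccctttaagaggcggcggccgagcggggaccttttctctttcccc
Itgav, chr2:83724147-83724396, plus strand: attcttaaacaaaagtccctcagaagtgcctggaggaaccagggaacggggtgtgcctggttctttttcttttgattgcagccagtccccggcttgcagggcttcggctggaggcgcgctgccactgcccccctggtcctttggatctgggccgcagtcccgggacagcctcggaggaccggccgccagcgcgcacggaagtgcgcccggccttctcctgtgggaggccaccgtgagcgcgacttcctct
Itga5, chr15:103366792-103367041, minus strand: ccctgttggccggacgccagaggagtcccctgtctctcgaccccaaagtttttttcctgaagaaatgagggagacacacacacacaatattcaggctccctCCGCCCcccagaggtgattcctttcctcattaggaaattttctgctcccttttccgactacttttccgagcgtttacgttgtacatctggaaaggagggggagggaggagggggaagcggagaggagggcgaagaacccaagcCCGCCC

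The 250 bases before each start were searched on both strands for 7 motifs, and no matches of different motifs overlapped. The GC box GGGCGG, bound by SP factors, was found in 5 of the 8 member windows, those of Itgb1, Itga5, Itgb5 and both starts of Itga3, against 33% of all 32536 promoter windows. The Itgb1 window also held the TEAD motif GGAATG, 7 to 2 bases before the start, and the antioxidant response element TGACNNNGC, 21 to 13 bases before it. These motifs occur in 12.6% and 10.2% of all windows. The AP-1 motif TGANTCA (6.73% of all windows), the TATA box TATAAA (12.3%), the E-box CACGTG (6.04%) and the CArG box bound by serum response factor (1.48%) were found in no member window. The window of Itgav held none of the 7. Content of G and C was 68% for Itgb1, 67.6% for the Itga3 start shown, 64.4% for Itgav and 55.6% for Itga5, against a median of 52.4%. A match describes letters in the window and is not a measured binding site.

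The first comparison set the experimental against the control group, the contrast the labels imply for the experimental condition. As deposited, 4 of the 6 tested subunits were lower in experimental libraries (Itga3, Itgav, Itgb5 and Itgb1) and none was higher. The difference was largest for Itga3, whose experimental mean was 0.561 times the control mean, and smallest for Itgb1, at 0.913 times. Over all 11974 tested entries 74% were called, 23.5% higher and 50.5% lower, so a count of 4 lower of 6 lies near the background. The groups did not overlap for 5 of the 6, Itga5 being higher and the 4 called subunits lower, beside 76.2% of all tested entries (24.7% higher and 51.5% lower). The median log2 difference of the 6 subunits was -0.20, beside -0.21 for all tested entries.

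Each gene was tested with limma on log2(FPKM + 1), which understates changes of low genes, and called at an adjusted p under 0.05. Itga3 had a log2 difference of -0.79 (SE 0.069, limma adjusted p = 3.37e-06). Itgav had a difference of -0.46 (SE 0.065, adjusted p = 0.000103), with a ratio of means of 0.711. For Itgb5 it was -0.28 (SE 0.066, adjusted p = 0.00324), with a ratio of 0.814. Itgb1 differed by -0.13 (SE 0.041, adjusted p = 0.0147), a call lost without experimental replicate 3 (adjusted p = 0.0503). Itga5 and Itga6 were not called, with 95% intervals of the log2 difference of -0.01 to 0.30 (adjusted p = 0.0831) and -0.08 to 0.16 (adjusted p = 0.53). The Itga5 difference of 0.14 passed without intervention replicate 1, which left the difference as it was and lowered the pooled spread (adjusted p = 0.0405).

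The scaling decides which subunits count as changed, apart from Itga3 and Itgav. The median of all genes lay at -0.21 log2 units as deposited and at 0.003 after median-ratio scaling, which sets the typical gene to no change. After that scaling 3 subunits were called higher and 2 lower, beside 4380 higher and 4357 lower of all 11974 tested entries. These subunit counts lie near that background. Itgb1 turned to 0.12 (limma adjusted p = 0.027), Itga5 rose by 0.39 (adjusted p = 0.00125) and Itga6 by 0.26 (adjusted p = 0.00309). Itgb5 was no longer called (-0.04, adjusted p = 0.632), nor was it after quantile normalization (-0.15, adjusted p = 0.0657). Quantile normalization also brought the median of all genes near 0, at -0.01. Under it Itgb1 stayed lower (-0.21, limma adjusted p = 0.00103) and Itga5 was not called (0.16, adjusted p = 0.088). Itga6 was called higher there too (0.29, adjusted p = 0.0018). Scaled to TPM, Itgb1 was also lower (-0.19, adjusted p = 0.00091). Itga3 and Itgav stayed lower, at -0.55 and -0.22 log2 units, and both were called under all 19 alternatives. Relative to the median of all genes the deposited differences were -0.58 for Itga3, -0.25 for Itgav, -0.07 for Itgb5, 0.08 for Itgb1, 0.25 for Itga6 and 0.35 for Itga5. In bulk libraries fewer cells with a transcript and less transcript per cell cannot be told apart.

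**Figure D2:**
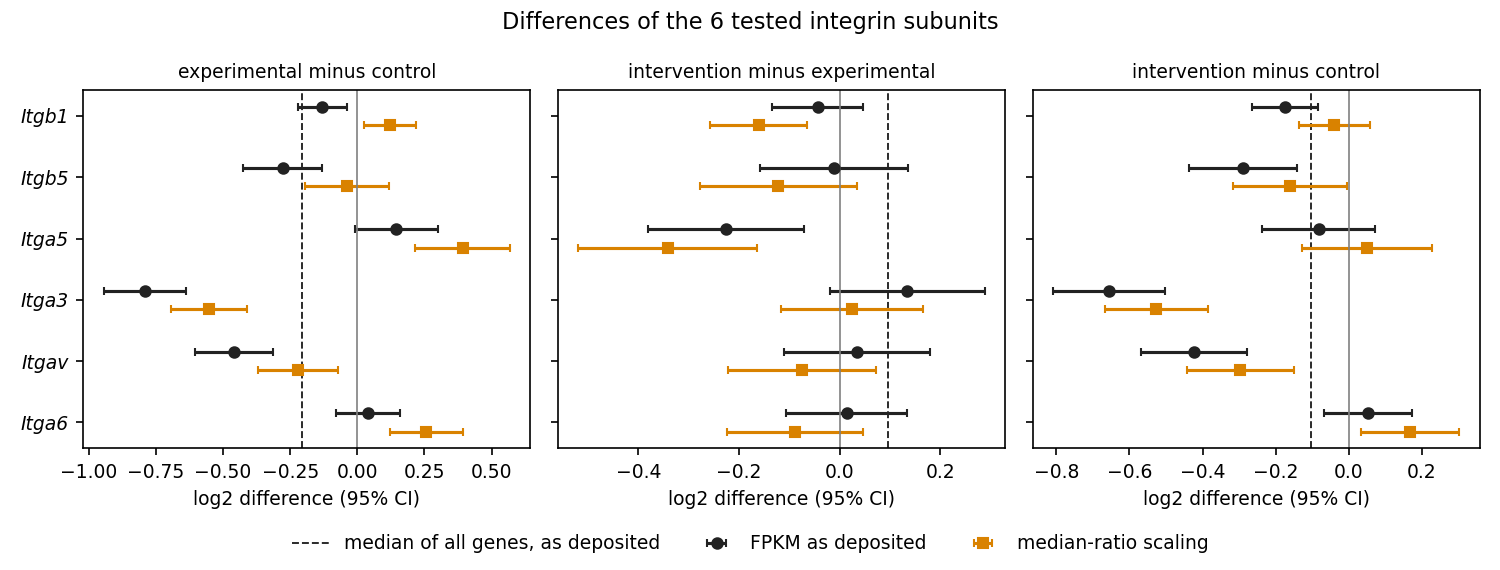
Log2 difference of FPKM + 1 with its 95% confidence interval for the 6 tested subunits in each comparison, as deposited (circles) and after median-ratio scaling (squares), with a dashed line at the median of all genes as deposited. Itga3 and Itgav lie below 0 against control under both scalings, while Itgb1 lies at -0.13 as deposited and at 0.12 after scaling for experimental minus control.

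The second comparison, intervention against experimental, asks how far the intervention condition differed from the experimental one. Of the 6 tested subunits 1 was called: Itga5 fell by 0.23 on the log2 scale (SE 0.069, limma adjusted p = 0.0468), from 42.0 ± 1.53 to 35.9 ± 3.07 FPKM, a ratio of 0.853. Over all tested entries 19.5% were called, 15.9% higher and 3.60% lower. That Itga5 call was kept in only 6 of 19 alternatives, although its sign was the same in all of them. It was lost without control replicate 1 (adjusted p = 0.066), experimental replicates 1, 2 or 3 (0.153, 0.0575 and 0.116) and intervention replicates 1, 2 or 3 (0.158, 0.0534 and 0.0567). With the replicate number as a block the adjusted p was 0.0743. Without experimental replicate 1, experimental replicate 3 or intervention replicate 1, only 1, 4 and 6 of all 11974 tested entries were called. The loss in those fits was not particular to Itga5.

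The other tested subunits were not called between intervention and experimental libraries. Itga3 differed by 0.13 log2 units (95% interval -0.02 to 0.29, limma adjusted p = 0.18), and was called only without intervention replicate 2 (adjusted p = 0.0464). Itgav differed by 0.03 (-0.11 to 0.18), Itgb5 by -0.01 (-0.16 to 0.14) and Itga6 by 0.01 (-0.11 to 0.13). Itgb1 differed by -0.04 (-0.13 to 0.05). Itgb1 and Itga5 were the 2 subunits whose intervention values all lay below the experimental ones. Of all tested entries 42.5% did not overlap, 33.7% higher and 8.79% lower. After median-ratio scaling, where the median of all genes moved from 0.10 to 0.001, Itgb1 was called lower (-0.16, adjusted p = 0.0417). Missing calls do not by themselves show that the groups were alike. The deposited differences of Itgav, Itgb5, Itga6 and Itgb1 have intervals that reach no further than 0.18 log2 units above and 0.16 below 0. After median-ratio scaling the intervals of Itgb5, Itgb1, Itga6 and Itgav reach down to -0.28, -0.26, -0.22 and -0.22.

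The third comparison set intervention against control and shares its libraries with both others. The same 4 subunits were lower and none was higher, while 65.3% of all tested entries were called, 24.1% higher and 41.1% lower. The groups did not overlap for those 4 alone, beside 68.7% of all tested entries (25.8% higher and 42.9% lower). Itga3 was at 0.621 times its control mean (log2 difference -0.66, SE 0.069, limma adjusted p = 2e-05). Itgav was at 0.730 times (-0.42, adjusted p = 0.000252), Itgb5 at 0.808 times (-0.29, adjusted p = 0.00316) and Itgb1 at 0.886 times (-0.17, adjusted p = 0.00367). Itga5 differed by -0.08 (95% interval -0.24 to 0.07) and Itga6 by 0.05 (-0.07 to 0.17), and neither was called. All 4 calls were kept in each of the 9 fits that left out a library, where 59.9% to 65% of all tested entries were called. After median-ratio scaling Itga3 (-0.53) and Itgav (-0.30) were still lower, Itga6 was higher (0.17, adjusted p = 0.0317), and Itgb5 (-0.16, adjusted p = 0.0652) and Itgb1 (-0.04, adjusted p = 0.448) were not called.

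The makeup of the alpha subunit mRNA is a share within each library, so scaling a library by a single factor does not alter it. Quantile normalization can. Itga5 made up 44.2% ± 0.269 of the summed FPKM of the 7 alpha members in control libraries, 56.3% ± 1.18 in experimental and 51.0% ± 2.58 in intervention libraries (SD, n = 3 each). Its library values of 43.9% to 44.5%, 55.3% to 57.6% and 48.1% to 52.9% did not overlap between groups. Itga3 made up 28.1% ± 0.935, 18.1% ± 1.09 and 21.3% ± 1.87 in the same order, again without overlap. The share of Itgav was 20.1% ± 0.831 in control, 16.4% ± 0.200 in experimental and 17.99% ± 1.63 in intervention libraries, where the intervention range of 16.5% to 19.7% overlapped both others. Itga6, whose FPKM overlapped between groups, went from 7.30% ± 0.369 to 8.65% ± 0.0685 and 9.30% ± 0.291. A share also depends on the other members. The summed alpha level was 85.8 FPKM in control, 74.6 in experimental and 70.3 in intervention libraries. The mean Itga5 level was 37.97, 42.05 and 35.86 FPKM in that order. In intervention libraries the Itga5 share was thus above that of control although its mean level was not. As deposited, Itga5 was called in neither comparison with control. The shares are given as a description and were not tested.

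**Figure D3:**
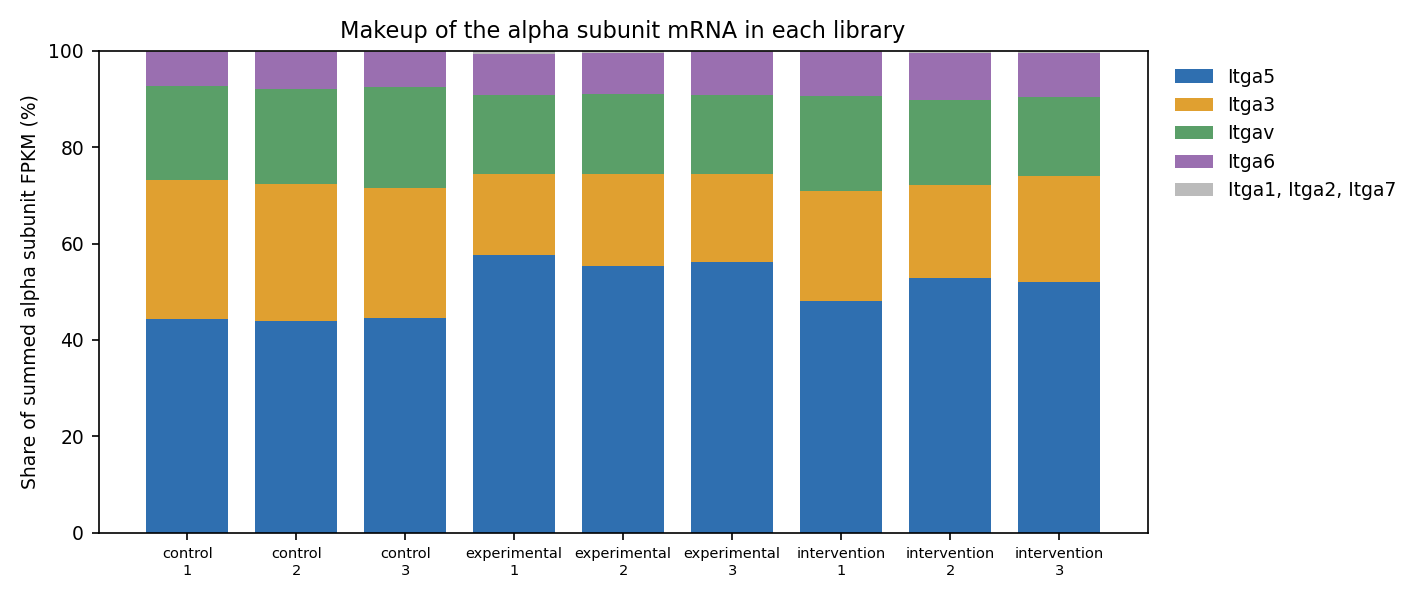
Share of each alpha subunit in the summed FPKM of the 7 alpha members, as stacked bars in percent, with 1 bar per library. The Itga5 part is 43.9% to 44.5% in the control bars and 55.3% to 57.6% in the experimental bars, while the Itga3 part is smaller in the experimental and intervention bars than in the control bars.

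Among the beta members Itgb1 held 88.8% ± 0.833 of the summed FPKM in control, 89.9% ± 0.222 in experimental and 89.7% ± 0.663 in intervention libraries, and these ranges overlapped. Summed over the 7 alpha members the level was 85.8 ± 4.76, 74.6 ± 1.17 and 70.3 ± 3.01 FPKM. Itgb1 alone exceeded that sum in every library, with a ratio of 1.72 ± 0.131 in control, 1.80 ± 0.0163 in experimental and 1.86 ± 0.117 in intervention libraries, with overlapping ranges.

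Of 16 further integrin subunits looked up, 15 had an entry, and 13 of those stayed under 1 FPKM in every library, with a highest value of 0.88. The exceptions were Itgb7 and Itgb2, beta subunits known from leukocytes. Itgb7 rose from 15.16, 14.28 and 15.24 FPKM in control libraries to 17.95, 20 and 17.33 in experimental libraries (log2 difference 0.29, SE 0.061, limma adjusted p = 0.00166), and stood at 17.42, 17.72 and 18.89 in intervention libraries. Its control values lay below all others, and it was called higher than control in both comparisons under all 19 alternatives. Itgb2 fell from 3.03, 2.59 and 2.11 FPKM to 1.07, 0.91 and 1.23 (log2 difference -0.78, SE 0.108, adjusted p = 8.65e-05), with 1.42, 1.2 and 1.51 in intervention libraries.

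Most adaptors and activators that join integrins to actin were lower in experimental than in control libraries. Of 37 listed genes 31 were tested, 22 fell and 4 rose, with a median log2 difference of -0.54, while over all tested entries 50.5% fell and 23.5% rose, with a median of -0.21. After median-ratio scaling 18 fell and 9 rose, beside 4357 lower and 4380 higher of all 11974 tested entries. Tns2, a tensin that binds beta tails, went from 48.4 to 15.3 FPKM (limma adjusted p = 6.14e-08), and Kank2, a talin-binding protein of adhesion borders, from 23.4 to 5.74 (adjusted p = 1.16e-07). Tgfb1i1, the paxillin relative Hic-5, went from 6.48 to 1.74 FPKM (adjusted p = 5.72e-08) and the actin crosslinker Actn1 from 55.1 to 26.1 (adjusted p = 2.62e-07). Among genes of the integrin-linked kinase complex, named after their values were seen, Ilk at 0.453, Lims1 at 0.762, Parva at 0.588 and Rsu1 at 0.509 times control fell as deposited. Parvb, the other parvin listed, was not called, at 0.973 times control (limma adjusted p = 0.559), and Lims2 was not tested. Talin 1 (Tln1) was at 0.578, kindlin-2 (Fermt2) at 0.565 and vinculin (Vcl) at 0.678 times control, likewise named afterwards. The 4 that rose were Flna, Zyx, Git1 and Arhgef7, at 1.52, 1.28, 1.21 and 1.18 times.

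Among 26 tested integrin ligands of 36 listed, 19 fell and 4 rose between experimental and control libraries, with a median log2 difference of -0.51 (15 and 4 after median-ratio scaling). The same background of 50.5% lower, 23.5% higher and a median of -0.21 applies as deposited. After median-ratio scaling it is 4357 lower and 4380 higher of 11974 tested entries. The fibrillar collagen gene Col3a1 went from 172.05, 163.98 and 186.41 FPKM to 42.56, 46.01 and 45.09 (limma adjusted p = 1.57e-08), and Col1a2 was at 0.381 times control (adjusted p = 7.76e-08). The matricellular protein Ccn2 was at 0.0743 times (adjusted p = 4.39e-08) and the adhesion molecule Vcam1 at 0.371 times (adjusted p = 1.76e-07). Fibronectin (Fn1), the ligand of the Itga5 receptor and named after its values were seen, was at 0.731 times (adjusted p = 0.00599). The 4 ligands that rose were all basement membrane genes, also named afterwards: the laminin chains Lamb1 and Lamc1 at 1.41 and 1.44 times, nidogen (Nid1) at 1.72 and the collagen chain Col4a1 at 1.18 times control. Nid1 values of 80.72, 84.41 and 81.57 FPKM lay above its control values of 49.08, 45.10 and 49.48.

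Of 20 tested membrane partners and traffic genes among 23 listed, 10 fell and 4 rose, with a median log2 difference of -0.20, near the background of 50.5% lower, 23.5% higher and a median of -0.21. The split turned to 4 lower and 9 higher after median-ratio scaling, where 4357 of all 11974 tested entries were lower and 4380 higher. Cav1, the caveolar coat protein, went from 169 to 33.5 FPKM (limma adjusted p = 3.66e-08), and Snx17, which recycles integrins from endosomes, was at 0.543 times control (adjusted p = 6.3e-07). Slc3a2, the amino acid transporter chain CD98hc that binds beta tails, was at 8.77 times (adjusted p = 2.75e-08). Plaur, the urokinase receptor that pairs with integrins, went from 2.66, 2.99 and 2.60 FPKM to 22.76, 18.97 and 21.17 (adjusted p = 6.54e-08). Rab5a and Numb also rose, at 1.53 and 1.21 times.

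Intervention against control gave, for the same lists, 23 lower and 3 higher adaptors, 20 lower and 3 higher ligands, and 9 lower and 4 higher partners, or 19 and 5, 17 and 4, and 6 and 7 after median-ratio scaling. Over all tested entries 41.1% were lower and 24.1% higher as deposited. After median-ratio scaling 3876 of 11974 were lower and 3912 higher. The partner counts lie near the background under both. Tgfb1i1 was at 0.258, Col3a1 at 0.280 and Col1a1 at 0.286 times control in intervention libraries, and Cav1 at 40.6 FPKM against 169 (limma adjusted p at most 8.62e-07). Plaur was at 5.31 times (adjusted p = 3.54e-07).

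In intervention against experimental libraries 3 of 31 adaptors, 2 of 26 ligands and 3 of 20 partners were higher, and 0, 3 and 3 were lower, while over all tested entries 15.9% were higher and 3.60% lower. Plaur fell from 21.0 to 14.6 FPKM (limma adjusted p = 0.0198), Slc3a2 from 415 to 273 (adjusted p = 0.0153) and the matricellular ligand Ccn1 from 18.2 to 13.7 (adjusted p = 0.0222). Kank2 rose from 5.74 to 7.68 FPKM (adjusted p = 0.0271) and Ptk2, focal adhesion kinase, from 10.5 to 12.0 (adjusted p = 0.0299). Without experimental replicate 1, experimental replicate 3 or intervention replicate 1, 0 of these genes were called in either direction, and without intervention replicate 3 only 2 were called higher. After median-ratio scaling 1 was higher and 11 were lower. That scaling also turned the calls over all 11974 tested entries, to 567 higher and 946 lower.

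**Figure D4:**
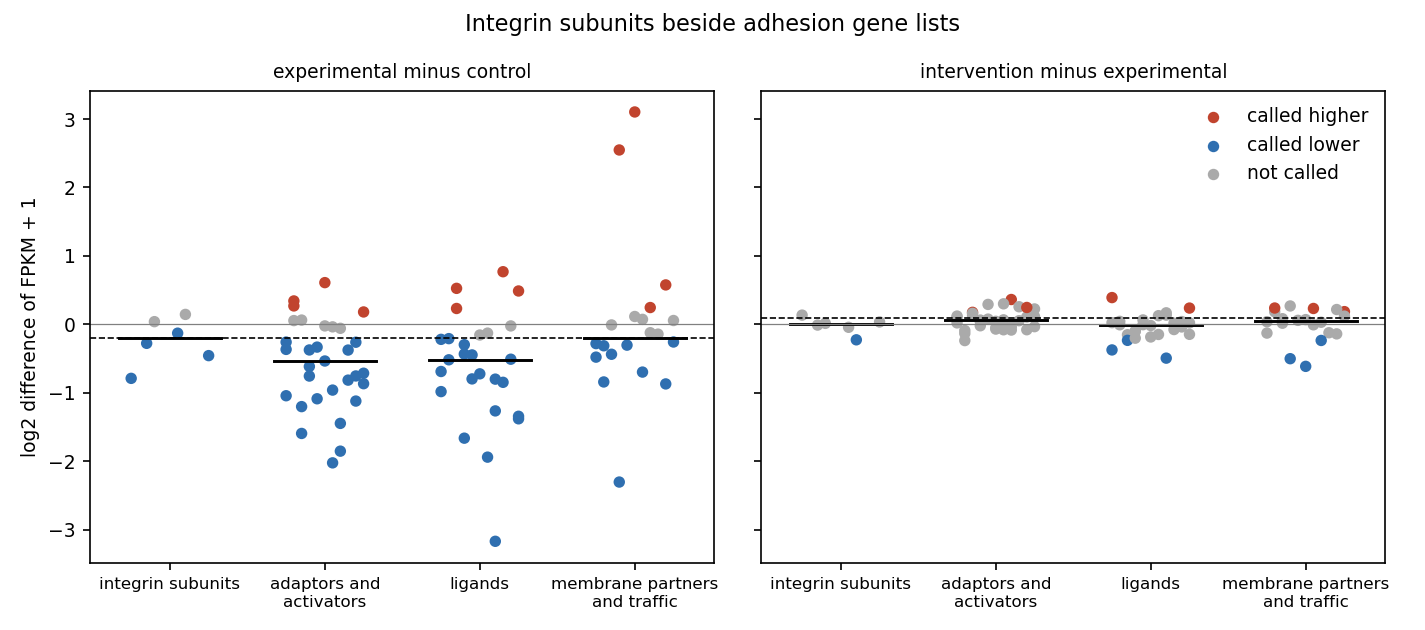
Log2 difference of FPKM + 1 for each tested gene of the integrin subunits and of the adaptor, ligand and partner lists, for experimental minus control and intervention minus experimental, coloured by the limma call, with a bar at each list's median and a dashed line at the median of all genes. The adaptor and ligand medians lie at -0.54 and -0.51 for experimental minus control, below the subunits at -0.20.

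The genes most alike in pattern were found by the root mean square difference of log2(FPKM + 1), each gene centred on its mean over the 9 libraries, among 6680 entries with a mean of at least 5 FPKM. For Itgb1 these were Rtn3 (0.029 log2 units), an endoplasmic reticulum shaping protein, Tmf1 (0.032), a Golgi protein, and Slc38a4 (0.035), an amino acid transporter. For Itga5 they included Sh3pxd2b (0.051), a podosome scaffold, and Ehbp1l1 (0.055). For Itgav they were the aminopeptidase Lnpep (0.031), the kinase Lrrk2 (0.046) and the RNA-binding protein Rbms1 (0.046). Lnpep, the closest to Itgav, had mean levels of 14.9 FPKM in control, 10.8 in experimental and 10.99 in intervention libraries.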

How the data were processed

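The authors deposited 1 table of FPKM with 2 decimals, 1 column per library. The submitters' processing notes name build mm10. Not given in the sources used here: aligner, counting program, annotation, use of strand. Per the labels' protocols, RNA came from a Qiagen kit and libraries from a SMARTer mRNA kit. Depth is unknown. Among 8039 nonzero values of genes shorter than 200 nt, 1384 (17.2%) fell short of a single read even at an assumed library size of 200 M reads, so the values could not be turned back into whole reads, and count models were not used.

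Values became log2(FPKM + 1). Entries with at least 1 FPKM in at least 3 libraries were tested (11974). A repeated symbol stayed with the entry of the highest mean. All 9 libraries entered 1 limma fit (limma 3.58.1, R 4.3.3, mean-variance trend), with 2-sided Benjamini-Hochberg adjustment over all tested entries. The fit was first tested on data simulated for that purpose. Positions came from GENCODE M21 and promoters from RefSeq. All 10 members are named, and from the adaptor, ligand and partner lists up to 4 called genes per comparison with the smallest adjusted p and at least 5 FPKM. The members and lists were chosen with earlier results of these data known. Alternatives were other pseudocounts, filters, scalings and fits, a replicate block and leaving out each library. One gene that the rule for genes alike in pattern selects is not reported here.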

Additional observations from a re-analysis of the deposited data

How the results depend on the processing

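Of 342 values of the 6 tested subunits under the alternatives, 303 kept their direction and side of the threshold, 18 lost a call, 8 gained one, 12 uncalled values changed sign and 1 reversed. The reversal was Itgb1 in experimental against control, at 0.1217 log2 units after median-ratio scaling.

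Median-ratio scaling gave 3 higher and 2 lower subunits for experimental against control (0 and 4 as deposited), with 23 higher adhesion genes of the other lists (13). It gave 1 higher and 2 lower subunits for intervention against control (0 and 4), with 17 higher adhesion genes (11), and 2 lower subunits for intervention against experimental (1), with 1 higher and 11 lower adhesion genes (8 and 6). Over all 11974 tested entries it called 4380 higher and 4357 lower for experimental against control. The numbers were 3912 and 3876 for intervention against control, and 567 and 946 for intervention against experimental. Quantile normalization gave 1 higher subunit in each comparison with control, with 3 lower for experimental against control (Itgb5 lost) and 4 lower for intervention against control, and for intervention against experimental 0 lower subunits and 0 higher adhesion genes. Over all 11974 tested entries quantile normalization called 4172 higher and 4432 lower for experimental against control. It called 3798 and 3913 for intervention against control, and 451 and 587 for intervention against experimental.

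For intervention against experimental, 0 subunits were lower without a filter on low values, scaled to TPM, without the trend, with the replicate block and with only the 2 groups compared. Higher adhesion genes numbered 0 without a filter (and 0 lower), 5 scaled to TPM, 5 without the trend, 2 with the replicate block and 5 with only the 2 groups compared. Over all genes the limma calls of that comparison numbered 2337 in the main fit, 358 without a filter and 1513 after median-ratio scaling. They numbered 1038 after quantile normalization, 1949 scaled to TPM and 2102 without the trend. With the block there were 1268, and with only the 2 groups compared 1743. When a library was left out there were 1 to 2571, and 3161 to 4693 entries had an unadjusted limma p under 0.05.

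Leaving out a library gave 0 to 1 higher and 3 to 4 lower subunits for experimental against control. Over all 11974 tested entries those fits called 69.4% to 73.8%, with 2599 to 2801 higher and 5686 to 6040 lower. Intervention against experimental gave 0 to 1 in each direction, with 0 to 12 higher and 0 to 9 lower adhesion genes. The subunits lower in intervention than in control numbered 4 in each fit, beside 59.9% to 65% of all tested entries called, 4491 to 4915 of them lower.

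Correlations between same-numbered libraries, in their deviations across genes, lay between -0.182 and 0.11. They were -0.0502, 0.11 and 0.108 for experimental and control, -0.0281, -0.182 and -0.00688 for intervention and experimental, and 0.0502, -0.0764 and -0.0775 for intervention and control. The labels give these libraries only a shared number. Correlations of deviations from means of 3 libraries cannot exclude a shared culture or preparation. The replicate block ended the Itga5 call and no other call of a subunit. The best match of a library was its own number in 2 of 3, 0 of 3 and 1 of 3 cases in these comparisons.

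With all subunits in the table as denominator the share of Itgb1 was 80.01%, 79.22% and 78.84% in control, experimental and intervention libraries, and that of Itgb5 10.09%, 8.906% and 9.07%. For control Itga5 it was 43.54%, for experimental Itga6 8.516% and for experimental Itgav 16.19%. Unknown depth leaves the precision of values below 1 FPKM unknown.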

Other observations

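Itgb7 mRNA stood at 14.28 to 20 FPKM in the 9 libraries, close to Itgb5, although the alpha subunits it is known to pair with were nearly absent: Itga4 was at most 0.01 FPKM and Itgae at most 0.32. These values were noticed after they were seen, and no other readout of Itgb7 was used here.

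The ratio of Itga5 to Itgav FPKM within a library was 2.11 to 2.27 in control, 3.33 to 3.55 in experimental and 2.44 to 3.16 in intervention libraries. Scaling each library by a single factor does not alter it, whereas quantile normalization can. The groups did not overlap, and the intervention values lay between the others. This ratio was also chosen after the values were seen and was not tested.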
